A study of Mus musculus with 8 samples.

Results

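Skeletal muscle contracts through the sarcomere, the repeating unit in which myosin thick filaments pull on actin thin filaments. The 45 genes described here encode its myosins, actins, troponins and scaffold proteins, the calcium machinery that triggers contraction, and factors that fold or fuel the contractile apparatus. They were listed by name from the 18193 genes that the array annotation names by a single symbol, and all 45 had at least 1 probe set, 79 probe sets in all. A probe set is a group of short array probes that reads 1 transcript or a few related ones.

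The samples were tubercle regions, dissected from FVB/N mouse embryos 14 days post coitum (Theiler stage 22), from 4 males and 4 females. The tubercle is the embryonic precursor of the penis or clitoris, and the perineal muscles attached to the base of the penis are larger in adult male rodents than in females. Males and females share strain, stage and dissection, no sample was pooled, and the labels name no treatment or transgene. Each RNA was amplified in 2 rounds and hybridized to its own Affymetrix MOE430 array. Nothing states that the samples of a sex came from different litters, so the p-values reflect how far these particular samples scatter, and part of that scatter may be technical.

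One array stood apart from its label. Xist, the RNA that coats the inactive X chromosome, read 32460 to 35820 in females and 344, 230, 16040 and 620 in males 1 to 4, so male replicate 3 lay between the sexes. The Y-linked Eif2s3y was at the male level on that array (5571, against 4109 to 6136 over the males and at most 70.85 in females), as were Uty and Kdm5d. Without male replicate 3 the 8 members called below all stayed called, and 10 members were called in all.

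The myosins, actins and troponins of muscle exist as families of isoforms. Embryonic fibres first carry developmental forms such as embryonic myosin heavy chain and cardiac actin, and later replace them with adult fast or slow forms. Transcription of many of these genes in muscle is driven by the myogenic factors Myod1 and Myog, which bind E-box motifs, by MEF2 proteins and by serum response factor, which binds the CArG box.

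The contraction genes that differed between the sexes were all higher in males on the deposited scale. Myh3 (embryonic myosin heavy chain), Myh7 (slow and cardiac myosin heavy chain), Acta1 and Actc1 (skeletal and cardiac actin), Tnnt2 (cardiac troponin T, also made by embryonic skeletal muscle), Ttn (titin, the molecular spring) and the M-band proteins Myom1 and Myom2 rose in males. Their differences, always male minus female in log2(intensity + 16), ran from 0.76 to 2.24, the top value being that of Myom2, whose probe set reached the intensity minimum only through its male arrays. A gene was read on its brightest tested probe set, tested meaning a mean log2 value over all 8 arrays of at least 7.77, and called at a limma adjusted p under 0.05. Of the 45 genes 26 were tested and 8 were called higher in males, beside 14.0% of the 11489 tested genes of the array. By limma 0 of the 26 were called higher in females, beside 28.2% of all tested genes. At an unadjusted p under 0.05 there were 15 with a higher male and 1 with a higher female level. The share of all tested genes at an unadjusted p was not counted, and 4854 of the 11489 were called even after adjustment. Nothing is therefore read from this or the later unadjusted counts. With each array centred on its median, which moves the median of all tested genes from -0.12 to -0.33, the calls were 7 higher in males, without Actc1, and 2 in females, Tpm2 and Nexn. The other 18 tested members did not pass. The difference was above 0 for 21 of the 26 members (80.8%) and for 40.0% of all tested genes. The members and all tested genes were not matched for brightness. With the filter at the upper quartile 4 members stayed tested. Of all untested, dimmer probe sets 64.6% had a higher male mean, and the part of brightness in these shares was not tested. The median difference was 0.62 over the 26 members, 0.41 without female replicate 2, and -0.12 over all tested genes. In bulk RNA, fewer muscle cells and less muscle RNA in each cell cannot be told apart.

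**Figure D1:**
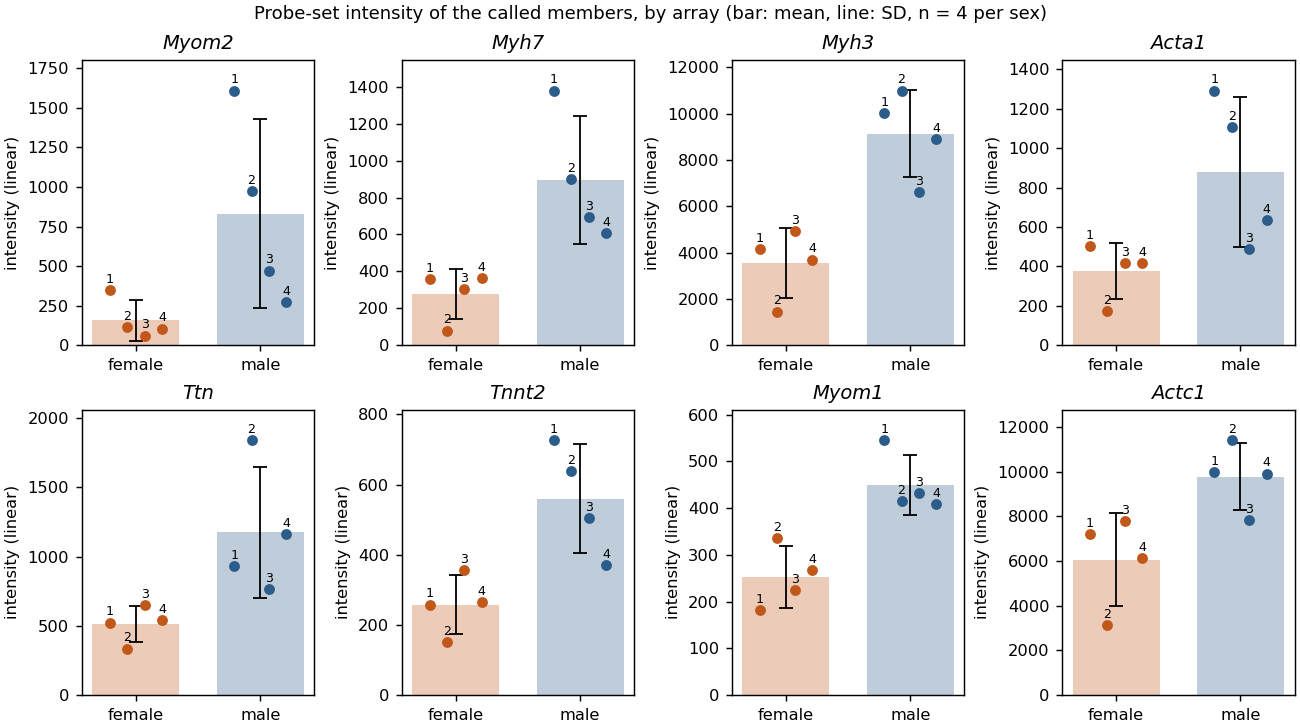
Linear probe-set intensity of the 8 called members on each array; points are arrays, numbered by replicate, bars are means and lines are SD with n = 4 per sex. Female replicate 2 is the lowest array for Myh3, Myh7, Acta1, Ttn, Tnnt2 and Actc1, and the ranges of the sexes overlap for Myom2 and Acta1.

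Of 79 member probe sets 32 were tested and 11 were called higher in males, beside 18.7% of the 22519 tested probe sets, while limma called 0 higher in females (1 at an unadjusted p under 0.05). Among the tested probe sets 4 (those of Tnni1, Neb and Myom2, and 1 of Mybpc1) reached the intensity minimum only through their male arrays, so they had to lie higher in males. Leaving out Myom2, Neb and Tnni1 for that reason, 7 of 23 members were called higher in males, and the median was 0.61. A difference above 0 was found for 18 of the 23 (78.3%, beside 39.0% of all tested genes that also reach the minimum on the female mean). Only tested genes entered these shares, so the step removes the effect of the filter only in part. Myl3 reached the minimum on its female mean but not over all 8 arrays, and stayed out (raw difference -0.49). Of the 11 called probe sets, 2 reached the minimum only through their male arrays (Myom2 and the dimmer Mybpc1 probe set).

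Sequence upstream of 4 of the 8 called members is shown as an example of the motifs named above, and each stretch holds at least 1 of them. Whether the motifs bear on the sex difference was not tested. The stretches end before the first base of the gene in the RefSeq gene table (GRCm38.p6) and come from the RefSeq promoter table of that build, with the CArG box, MEF2 site, E-box (CANNTG) and TATA box (TATAAA) in capitals, searched on both strands. Acta1 lies on the minus strand at chr8:123894776-123895025, Actc1 on the minus strand at chr2:114052876-114053125, Myh3 on the plus strand at chr11:67078050-67078272 and Ttn on the minus strand at chr2:76982558-76982797.
Acta1: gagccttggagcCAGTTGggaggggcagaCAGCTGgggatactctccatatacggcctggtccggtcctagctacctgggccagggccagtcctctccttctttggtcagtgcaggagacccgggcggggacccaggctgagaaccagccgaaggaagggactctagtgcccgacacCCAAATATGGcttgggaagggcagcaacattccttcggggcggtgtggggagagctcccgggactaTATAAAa
Actc1: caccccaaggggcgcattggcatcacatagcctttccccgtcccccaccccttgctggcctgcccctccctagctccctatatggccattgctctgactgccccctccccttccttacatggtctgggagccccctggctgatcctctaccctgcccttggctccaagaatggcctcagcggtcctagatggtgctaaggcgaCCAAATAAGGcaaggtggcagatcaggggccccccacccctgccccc
Myh3: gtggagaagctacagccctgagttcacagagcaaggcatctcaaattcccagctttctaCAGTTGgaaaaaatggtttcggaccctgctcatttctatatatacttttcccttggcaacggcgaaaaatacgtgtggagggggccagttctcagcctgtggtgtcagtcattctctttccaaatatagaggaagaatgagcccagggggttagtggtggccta
Ttn: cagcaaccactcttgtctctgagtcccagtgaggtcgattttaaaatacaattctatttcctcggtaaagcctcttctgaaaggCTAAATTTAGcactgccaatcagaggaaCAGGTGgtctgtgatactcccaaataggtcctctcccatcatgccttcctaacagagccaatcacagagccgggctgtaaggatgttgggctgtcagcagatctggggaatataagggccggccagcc
Acta1 held 2 E-boxes, 1 CArG box and 1 TATA box, Actc1 held 1 CArG box and no E-box, Myh3 held 1 E-box and Ttn held 1 MEF2 site and 1 E-box. Myh3 also has a TATA box, at -29 to -24 from the start in the RefSeq promoter table, which the end of the printed stretch cuts.

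Over the 250 bases before each start, 36 of the 45 members had a window in the RefSeq promoter table, 41 windows in all. A CArG box stood in 6 of the 41 member windows, those of Acta1, Actc1, Ldb3 (both starts), Myl3 and Myom1, and in 1.5% of all 32851 windows of the table. A MEF2 site stood in 5 member windows, those of Casq2, Klhl41, Myh1, Myh8 and Ttn, and in 2.9% of all windows; in Myh1 and Myh8 it overlapped a TATA box. An E-box stood in 33 member windows and in 66.2% of all windows, and a TATA box in 9 and in 12.4%. A match describes the letters only, and no match says nothing of the factor.

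Among the myosin heavy chains, which form the motor of the thick filament, both tested members rose in males and the other 3 lay below the intensity minimum. Myh3 read 4146, 1452, 4925 and 3701 in females 1 to 4 and 10024, 10993, 6623 and 8897 in males 1 to 4. Every male array lay above every female array, and the means were 3556 ± 1491 and 9134 ± 1881 (SD, n = 4 each). The difference was 1.47 ± 0.31 (SE, limma adjusted p = 0.00291). Myh7 read 361, 79.2, 304 and 365 in females and 1378, 901, 695 and 605 in males. Its male and female ranges were also apart, by a difference of 1.75 ± 0.41 (limma adjusted p = 0.00541). The adult fast chains were dim: Myh2 stayed between 5.80 and 19.2 on all 8 arrays, and the brightest of 3 Myh1 probe sets between 68.6 and 280.2. Perinatal Myh8 read 79.8 to 132 in females and 94.2 to 354 in males, with male replicate 4 at the female level. Myh3, Myh2, Myh1 and Myh8 follow each other on 1 chromosome with at most 1 protein-coding gene between neighbours, and of these only Myh3 reached the intensity minimum.

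The 3 tested myosin light chains, which brace the myosin lever arm, did not pass by limma (2 had an unadjusted p under 0.05). Mylpf, the fast regulatory chain, read 504, 222, 439.7 and 371 in females and 728, 648, 438 and 495 in males. The sexes overlapped, male replicate 3 standing level with female replicate 3, and the difference was 0.60 ± 0.26 (limma adjusted p = 0.0819). Myl1, the fast essential chain, differed by 0.64 ± 0.26 (limma adjusted p = 0.0683) and the embryonic and atrial Myl4 by 0.41 ± 0.24. Without male replicate 3 Myl1 passed (limma adjusted p = 0.0296). Without female replicate 2 the differences fell to 0.43 for Myl1 and 0.37 for Mylpf (limma adjusted p = 0.191 and 0.228). Of the slow and ventricular chains, Myl2 stayed at 4.34 to 19.6 on all arrays, and the brightest Myl3 probe set read 144 to 269.7 in females and 53.3 to 274 in males, below the minimum on average.

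In the thin filament 3 of 7 tested members rose in males, both sarcomeric actins and Tnnt2, and the median difference was 0.69. Acta1 read 502, 174, 418 and 416 in females and 1291, 1105, 487 and 636 in males. Male replicate 3 lay just below female replicate 1, so the ranges overlapped. The difference was 1.17 ± 0.35 (limma adjusted p = 0.0191), and it missed the threshold without male replicate 1 (0.0521) or male replicate 2 (0.0552). Actc1 read 7216, 3134, 7771 and 6123 in females and 9994, 11406, 7813 and 9908 in males. The lowest male was barely above the highest female, and the difference was 0.76 ± 0.23 (limma adjusted p = 0.0222). It was 0.47 without female replicate 2 and missed the threshold without male replicate 2 (limma adjusted p = 0.0601). The actins are near-identical in coding sequence, and how far their probe sets bind each other's transcripts was not tested.

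Troponin, the calcium switch of the thin filament, has tropomyosin-binding T, inhibitory I and calcium-binding C subunits. Tnnt2 read 258, 152, 357 and 264 in females and 726, 638, 503 and 371 in males, with no overlap (1.09 ± 0.27, limma adjusted p = 0.00805). Its other tested probe set, whose suffix marks probes that may bind other transcripts, gave 1.19 ± 0.24. Slow Tnnt1 read 934, 336, 892 and 819 in females and 1660, 1062, 862 and 863 in males. Male replicates 3 and 4 lay within the range of the other females, and the difference of 0.61 ± 0.31 did not pass (limma adjusted p = 0.132). Slow Tnni1 differed by 0.51 ± 0.27 and slow and cardiac Tnnc1 by 0.69 ± 0.30, and neither passed. Tnnc1 passed without female replicate 1 (limma adjusted p = 0.0332). Without female replicate 2 the differences fell to 0.38 for Tnnc1 and 0.28 for Tnnt1 (limma adjusted p = 0.209 and 0.368). The fast troponins Tnnt3, Tnni2 and Tnnc2 all lay below the minimum. Tnnc2 read 12.2 to 177 in females and 174 to 324 in males, and Tnnt3 6.62 to 105 and 31.2 to 180.1. The genes come in pairs: Tnni1 and Tnnt2 stand with 1 protein-coding gene between them, as do Tnni2 and Tnnt3.

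Tropomyosin Tpm2, which blocks the myosin sites of actin and is also made outside striated muscle, did not follow. Its brightest probe set read 4705 to 6877 in females and 4037 to 5144 in males (-0.26 ± 0.13, limma adjusted p = 0.138). Its 3 other tested probe sets gave -0.13, 0.06 and 0.49, of both signs, and none passed. With each array centred on its median, Tpm2 was called higher in females (-0.47, limma adjusted p = 0.0115).

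Of 9 tested members of the Z-disc, M-band and scaffold filaments 3 rose in males, with a median of 0.82. Ttn read 523, 335, 649 and 539 in females and 933, 1841, 765 and 1162 in males. All males lay above all females (1.13 ± 0.27, limma adjusted p = 0.00582). The second tested Ttn probe set, whose suffix marks probes that may bind other transcripts, gave 1.14 ± 0.30. The other Ttn probe sets lay below the minimum and overlapped between the sexes, with raw differences of 0.39, 0.35, 0.95 and 0.04. Myom1 read 181, 336, 225 and 267 in females and 545, 415, 431 and 408 in males (0.82 ± 0.22, limma adjusted p = 0.0105). For Myom1 female replicate 2 was the highest female, while it was the lowest female for 6 of the other 7 called genes. Myom2 read 348, 114, 62.2 and 106 in females and 1609, 974, 472 and 273 in males. Male replicate 4 lay below female replicate 1, and the difference was 2.24 ± 0.53 (limma adjusted p = 0.00590). The suffix of that probe set marks probes that may bind other transcripts. The remaining Myom2 probe sets lay below the minimum. The brightest of them, with the same suffix, read 85.8 to 134 in females and 159 to 345 in males. The others, without that suffix, overlapped between the sexes, with raw differences of 0.66 and 0.12.

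Neb, which sets thin filament length, and Actn2, the Z-disc crosslinker, had differences of 1.03 ± 0.40 and 0.82 ± 0.35 and did not pass (limma adjusted p = 0.0582 and 0.0769). Neb read 294, 80.2, 247 and 214 in females and 247, 835, 339 and 381 in males. Male replicate 2 was far above the rest and female replicate 2 far below. Neb passed without female replicate 1 or male replicate 1, and Actn2 without female replicate 4 (limma adjusted p = 0.0351). Without female replicate 2 the differences fell to 0.67 for Neb and 0.41 for Actn2 (limma adjusted p = 0.157 and 0.159). Tcap, the titin cap, read 302 to 313 in females and 349 to 674 in males. The ranges did not overlap, and the difference of 0.46 ± 0.22 did not pass (limma adjusted p = 0.117). Ldb3, a Z-disc adaptor, differed by 0.35 ± 0.35; male replicate 4 read 153 against 373 to 588 on the other males, and without it Ldb3 passed (0.76, limma adjusted p = 0.0265). Without male replicate 1 or 2 the Ldb3 difference was 0.16 or 0.14. Des, the muscle intermediate filament, had means of 232 ± 18.8 and 232 ± 61.5 (-0.04 ± 0.24). Nexn, an actin-binding protein also made in smooth muscle, read 6073, 5063, 5133 and 5698 in females and 3477, 4304, 4097 and 5546 in males. Male replicate 4 stood among the females and the other males below them all. The difference was -0.35 ± 0.14 (limma adjusted p = 0.0571), and it passed without male replicate 4 (0.0107) and with median centring (-0.56, 0.0162). Actn3, the fast Z-disc actinin, stayed between 11.4 and 38.1.

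**Figure D2:**
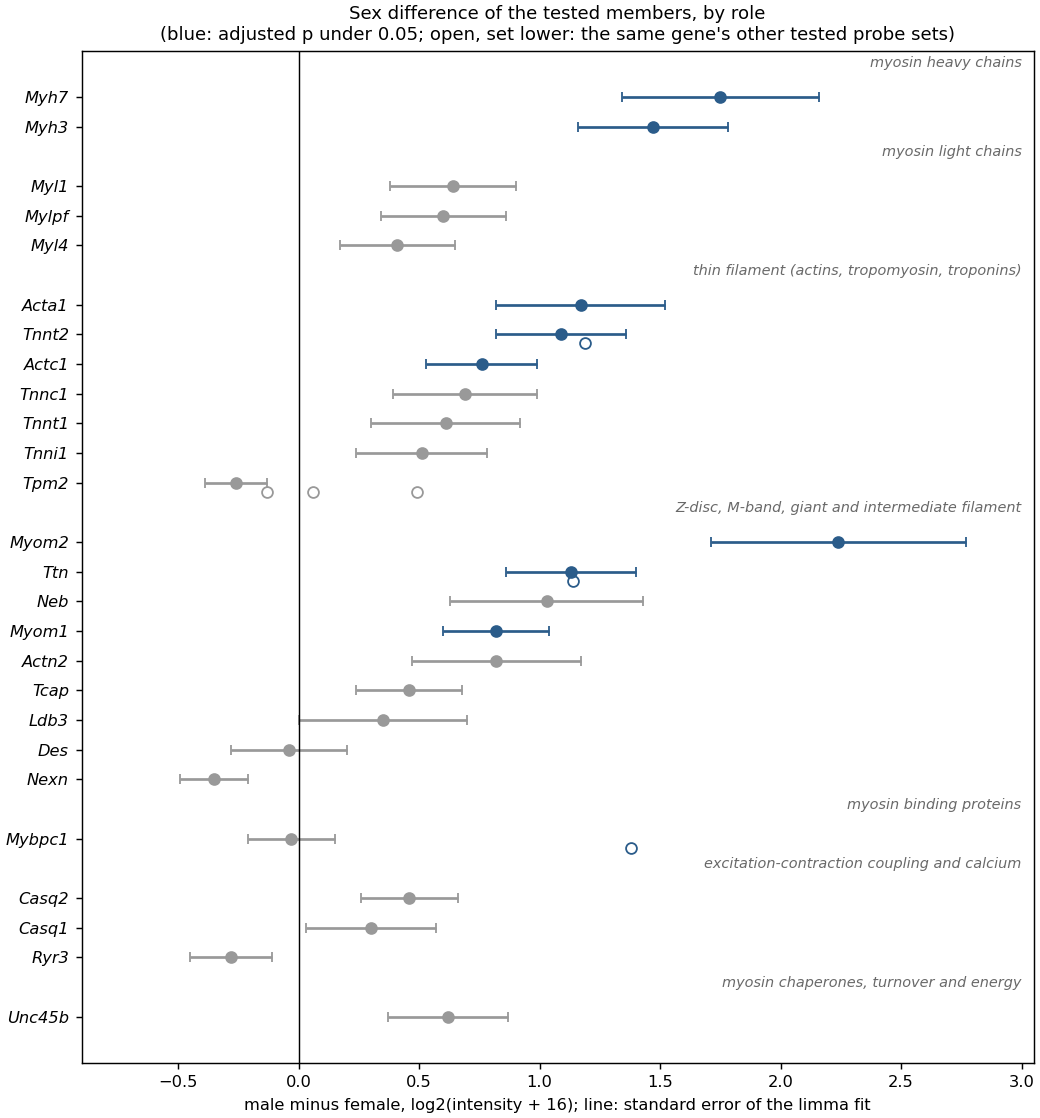
Male minus female difference on the log2(intensity + 16) scale for the 26 tested members by role; filled points are the brightest tested probe set with its limma standard error, open points are further tested probe sets of the gene, and blue marks an adjusted p under 0.05. Called members lie between 0.76 and 2.24, while Tpm2, Des, Nexn, Mybpc1 and Ryr3 lie below 0 and did not pass.

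Of the myosin binding proteins, which tie thick filaments into register, Mybpc1 gave unlike readings on its probe sets. The brightest read 581, 808, 585 and 601 in females and 599.7, 766, 567 and 576 in males (-0.03 ± 0.18, limma adjusted p = 0.896). Female and male arrays were interleaved. A dimmer probe set read 89.2, 81.2, 149.7 and 193 in females and 316, 317, 415 and 326 in males (1.38 ± 0.27, limma adjusted p = 0.00203), with no overlap. It reached the minimum only through its male arrays and so had to lie higher in males. Another, below the minimum, read 33.4 to 58.4 in females and 103 to 116 in males, also with no overlap. With both tested probe sets averaged Mybpc1 differed by 0.67 (limma adjusted p = 0.00573), a call that rests on that dimmer probe set. The fast Mybpc2 stayed at 9.68 to 38.8 and Mybph at 2.49 to 105.

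The genes of excitation-contraction coupling, which turn a nerve signal into calcium release, did not pass by limma (3 tested, 1 with an unadjusted p under 0.05) or were dim. Casq2, the slow and cardiac calcium store protein, read 315, 281, 352 and 318 in females and 505, 539, 330.1 and 414 in males. Only male replicate 3 fell within the female range (0.46 ± 0.20, limma adjusted p = 0.0847), and without it Casq2 passed (0.0354). The fast store protein Casq1 differed by 0.30 ± 0.27. The calcium release channel Ryr3 differed by -0.28 ± 0.17 on its brightest probe set, while its 2 dim ones, below the minimum, had raw differences of 1.23 and 1.01. The skeletal channel Ryr1 read 8.68 to 134 over both probe sets and all arrays. Also below the minimum were Cacna1s, the voltage sensor (at most 62.2), its partner Cacng1, the calcium pump Atp2a1 (means 183 ± 30.1 and 181 ± 28.1) and Cav3, the caveolin of muscle.

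Unc45b, a chaperone of myosin folding, read 497, 229, 449.6 and 443.8 in females and 801, 505, 579.9 and 574 in males. All males lay above all females, female replicate 2 lay far below the other females, and the difference did not pass (0.62 ± 0.25, limma adjusted p = 0.0635). It was 0.38 without female replicate 2. Klhl41, a regulator of sarcomere protein turnover, lay below the minimum with 76.3 to 217 in females and 219 to 327 in males. The brighter Ckm probe set, for muscle creatine kinase, read 46.1 to 174 in females and 189 to 236 in males. Smyd1, a methyltransferase and myosin chaperone partner, was dim on all 6 of its probe sets. In all, 47 member probe sets were not tested, and 41 of them (87.2%) had a male mean above the female mean on the log2 scale, beside 64.6% of all 22518 untested probe sets, so dim probe sets leaned toward males in general. The ranges of the sexes were apart in 6 of these 47 with males higher (12.8%), beside 6.79% of all untested probe sets. No test was made on these.

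Sorted by fibre form, the developmental isoforms gave 3 calls among 4 tested of 5 (Myh3, Actc1 and Tnnt2, not Myl4), with a median difference of 0.92. The slow fibre isoforms gave 1 call among 5 tested of 7 (Myh7), with a median of 0.61. By limma the fast fibre isoforms gave 0 calls among 3 tested of 11 (2 at an unadjusted p under 0.05), with a median of 0.60, and the other 8 lay below the minimum in the average of all arrays. Over all tested genes 14.0% were called higher in males. With so few tested genes in each form, the forms are not ranked by their calls. The differences between these counts and medians were not tested.

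The arrays of a sex were not alike. Female replicate 2 was the lowest of all 8 arrays for 16 of the 26 tested members and the lowest female for 19. Its median deviation from the mean of each gene was -0.97, against -0.27 to -0.09 on the other females. Male replicates 1 and 2 were each 0.50 above, and male replicates 3 and 4 only 0.02 and 0.18. One of males 1 and 2 was the highest male for 22 of the 26 members. Without female replicate 2 the 8 genes remained called, Acta1 with a limma adjusted p of 0.048. Every male array stood above every female array for 8 of the 26 members, beside 12.3% of all tested genes: Actc1, Myh3, Ttn, Myh7, Tnnt2 and Myom1, which were called, and Unc45b and Tcap, which were not.

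**Figure D3:**
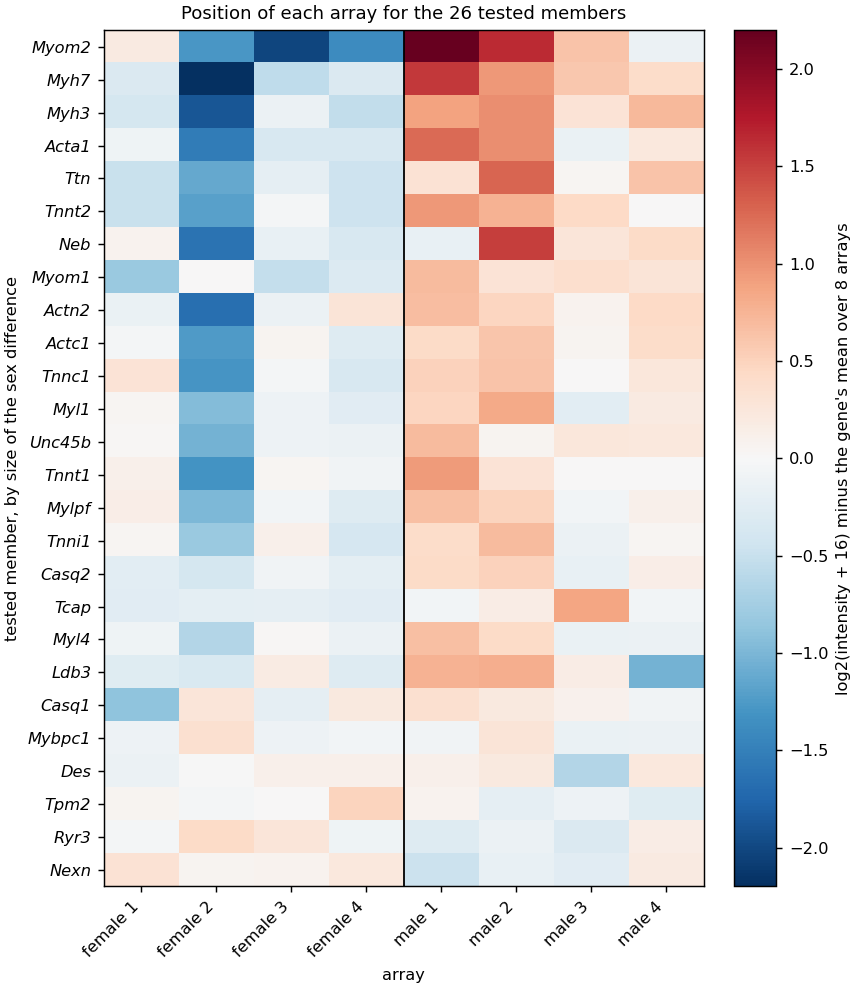
Deviation of each array from the gene's mean over 8 arrays, log2(intensity + 16), for the 26 tested members in order of their sex difference; red is above and blue below the mean. Female replicate 2 is darkest blue for most members (median -0.97), and male replicates 1 and 2 are the reddest columns (median 0.50 each).

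A technical reading moved with sex too. The 18S ribosomal RNA control, at its 3′ end, read 8332, 18930, 11690 and 13910 in females 1 to 4 and 28980, 23300, 33630 and 21050 in males. Female replicate 2, lowest for most members, was the highest female on it, nearest the males. The 18S ranges of the sexes did not overlap, so a fit with both cannot cleanly separate 18S from sex. With the log2 18S level as a covariate the 26 members had a median difference of 1.30, and 6 were called: Myh3, Myh7, Ttn, Actc1, Tnnc1 and Neb. The other 4 called genes missed the threshold: the difference was 2.19 for Acta1 (limma adjusted p = 0.0555), 1.41 for Tnnt2 (0.129) and 2.78 for Myom2 (0.119), each larger than without the covariate, and 0.19 for Myom1 (0.79), which was smaller. The median intensity of the array was 184 to 207 in females and 212 to 249 in males, and the part of these readings in the results was not tested.

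Other muscle genes were read from 5 further lists, beside the 14.0% and 28.2% of all tested genes called higher in males and in females. Of 13 tested myogenic regulators 6 rose in males and 1 fell, with a median of 0.36. The summed intensity of the list was 32570 to 37740 in females and 39570 to 43490 in males. That sum mostly follows its brightest genes, foremost Mef2c (9675 to 11300 in females and 12810 to 14700 in males, 0.36 ± 0.08), and Myod1 and Myog are a small part of it. Myod1, the myogenic determination factor, read 524, 393, 681 and 561 in females and 797, 1161, 989 and 869.6 in males (0.82 ± 0.20, limma adjusted p = 0.00611). Myog, which drives myoblast differentiation, read 736, 429, 747 and 862 in females and 1262, 1063, 995 and 944 in males (0.64 ± 0.21). Neither overlapped between the sexes, and female replicate 2 was the lowest array for both. Six4, a homeobox regulator of myogenesis, rose by 0.98 ± 0.16, the progenitor factor Pax3 by 0.91 ± 0.22 and Msc, a basic helix-loop-helix factor, by 0.65 ± 0.23. Srf, the serum response factor, was lower in males (-0.42 ± 0.13, limma adjusted p = 0.0236).

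At the neuromuscular junction 2 of 6 tested genes rose and 2 fell, with a median of 0.70. The acetylcholine receptor subunit Chrna1 (1.18 ± 0.17) and the receptor kinase Musk (1.70 ± 0.42) rose. Lrp4, the coreceptor of Musk (-0.67 ± 0.17), and Agrn, which encodes agrin (-0.30 ± 0.08), were lower in males. Which cells made the Agrn RNA was not tested. Of 10 tested further sarcomere and Z-disc genes 2 rose, Trim63 (1.02 ± 0.23), a ubiquitin ligase of the M-band, and Synpo2l (0.97 ± 0.20), and 1 fell, Obsl1 (-0.50 ± 0.10); the median was 0.11. Of 14 tested triad and membrane genes Dmd, which encodes dystrophin, rose (0.44 ± 0.13), Mtm1, a lipid phosphatase, fell (-0.63 ± 0.11), and the median was 0.01. Of 8 tested genes of muscle energy supply, Gatm (0.88 ± 0.26), of creatine synthesis, rose and the glycolytic Eno3 (-0.85 ± 0.16) and Pfkm (-0.44 ± 0.14) fell; the median was 0.02. In the triad and energy lists the share called higher in males was below that of all tested genes, and nothing is read from those counts.

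**Figure D4:**
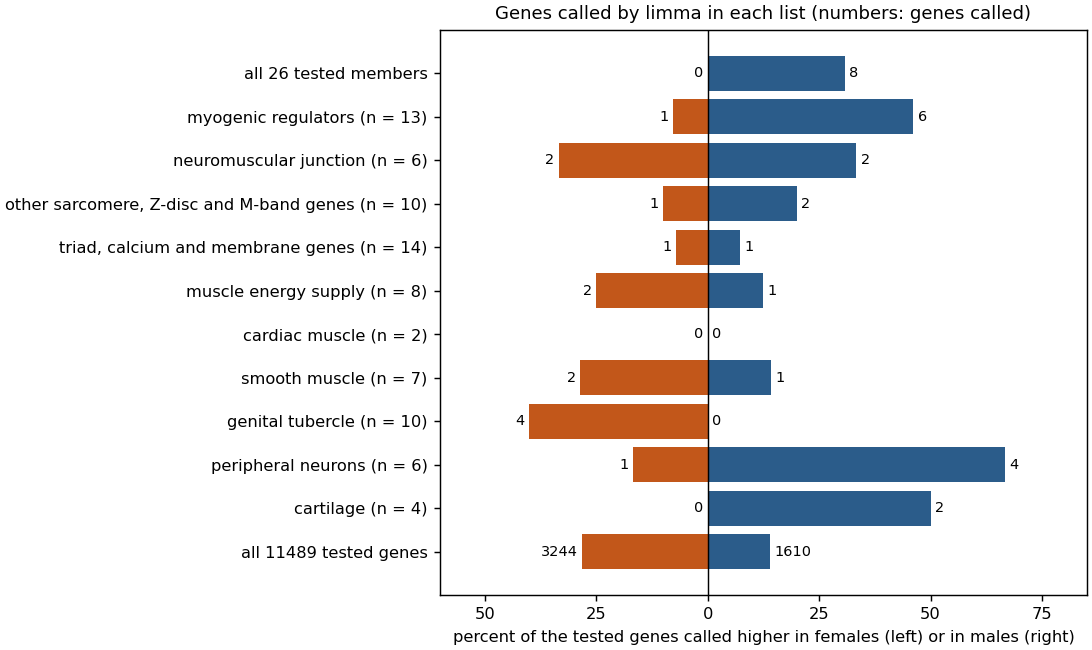
Percent of the tested genes of each list called by limma, higher in males to the right and higher in females to the left, with the number of genes called at each bar. The 26 members have 8 calls to the right and 0 to the left (7 and 2 with median centring), while 3244 of all 11489 tested genes lie to the left and 1610 to the right.

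Genes that mark other tissues were read beside the members. Over all tested genes 14.0% were called higher in males and 28.2% in females. Every male array lay above every female array for 12.3% of them. Of 9 cardiac markers 2 were tested and 0 were called by limma (1 at an unadjusted p under 0.05). The defining cardiac genes Myh6 (at most 18.05) and Myl7 (at most 72.9) were dim on every array. Ryr2, which was tested, was not dim and overlapped between the sexes (566 to 708 in females and 332 to 953 in males, -0.18 ± 0.26). Every male array lay above every female array for Mybpc3, cardiac myosin binding protein (219 to 279 in females and 286 to 417 in males, limma adjusted p = 0.0636), and for the untested Sln, a calcium pump inhibitor (20.3 to 154 and 192 to 413), and the summed list was 1166 to 1590 in females and 1357 to 2075 in males. Of 7 tested smooth muscle markers Acta2 was higher in males (0.60 ± 0.17), Smtn (-0.68 ± 0.22) and Synpo2 (-0.26 ± 0.09) were lower, and the summed list overlapped, with 22730 to 24740 in females and 21040 to 25840 in males. The smooth muscle counts were near the shares of all tested genes, and nothing is read from them. Of 10 tested tubercle markers limma called 0 higher (1 at an unadjusted p under 0.05) and 4 lower in males, Shh, Hoxd13, Isl1 and Dlx5, with sums of 134000 to 148000 and 116500 to 121900. Of 6 tested neuronal markers 4 rose, among them Stmn2 (1.43 ± 0.26), Dbh (0.61 ± 0.17) and Nefm (0.49 ± 0.12), and 1 fell, Gap43 (-0.48 ± 0.17; sums 9058 to 10490 in females and 11760 to 16020 in males). Of 4 tested cartilage markers 2 rose, Col9a1 and Sox9 (sums 3955 to 4445 and 6530 to 9787). By limma all 4 were higher in males at an unadjusted p under 0.05. For Col9a1, Sox9, Col2a1 and Hapln1 every male array lay above every female array. The median difference was 0.74 for cartilage and 0.52 for neuronal markers, beside 0.62 over the 26 members. It was 0.38 for smooth muscle, 0.16 for cardiac and -0.23 for tubercle markers. The neuronal and cartilage sums did not overlap between the sexes, and the part of those tissues in the result was not tested.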

How the data were processed

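Expression was measured on 8 Affymetrix MOE430 arrays, 4 of male and 4 of female tubercles, with sex taken from the labels. The deposited intensity of each of 45101 probe sets is linear and was made, per the submitters' processing notes, with GCOS, whose version and settings are not given in the sources used here. On every array a trimmed mean of 1500.0 was found, so the values were taken as scaled and not normalized again. Members were found by a single gene symbol in the platform annotation; all 45 symbols matched the RefSeq gene table (GRCm38.p6).

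Values were transformed as log2(value + 16), the 64 control probe sets were left out, and the 22519 probe sets with a mean of at least 7.77, the median of all, were tested with limma (version 3.58.1, R version 4.3.3; lmFit, eBayes with trend, only sex in the model) and adjusted by Benjamini-Hochberg over all of them at 0.05. Differences understate the change of dim genes. The number of arrays limits the precision. The method was tested on simulated data with independent scatter for each probe set. That test does not cover shifts shared by a whole array.

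Every member is accounted for. Of the other lists up to 4 called genes with the largest differences were named. Mef2c, Myog, Srf, Myh6, Myl7, Ryr2, Mybpc3 and Sln were named in addition, after their values were seen. Members and lists were chosen with earlier results of these data known. Alternatives were other scalings, pseudocounts, filters, variance models, a replicate block, array weights, the mean of a gene's probe sets, the 18S covariate and leaving out arrays. No pair among 28 pairs of arrays held identical values.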

Additional observations from a re-analysis of the deposited data

Results flagged for a closer look

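For 6 of the 52 groups of 4 arrays examined (26 members, 2 sexes), the highest or lowest array stood apart from the other 3 by more than Dixon's 95% limit on the log2 scale; chance alone marks about 1 in 20. On female replicate 2, Myh7 read 79.2 against 304 to 365 on the other females, Tnnt1 336 against 819 to 934, Unc45b 229 against 443.8 to 497, and Mybpc1, in the other direction, 808 against 581 to 601. On female replicate 3, Ldb3 read 377 against 258 to 272. On male replicate 3, Des read 141 against 249 to 272.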

How the results depend on the processing

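The 8 called genes kept their direction wherever they were tested under the 13 alternatives other than single arrays left out, and kept their calls under quantile normalization, both other pseudocounts, the robust variance model, array weights and averaged probe sets; the calls lost were Actc1 (with median centring, no filter and no variance trend), Tnnt2 and Myom1 (without male replicates 1 and 3 together, with differences of 0.94 and 0.71) and, with the 18S covariate, Acta1, Tnnt2 and Myom2, whose differences grew to 2.19, 1.41 and 2.78, and Myom1, at 0.19. The filter at the upper quartile left 2 of the 8 in the test, so it gave 2 genes and 2 probe sets higher in males and 1 gene and 1 probe set higher in females (Nexn). Median centring gave 2 genes and 2 probe sets higher in females (Tpm2 and Nexn), and averaging the probe sets of a gene gave 1 (Nexn) beside 12 in males. The 18S covariate gave 6 probe sets higher in males and a median of 1.30. That fit cannot cleanly separate 18S from sex, and the cause was not tested. Leaving out each array gave 6 to 10 genes and 8 to 13 probe sets higher in males, and 0 to 1 of each higher in females.

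Signs that turned belonged to members that had not passed. Mybpc1 was 0.02 with array weights, 0.67 with the mean of its probe sets, 0.06 without male replicates 1 and 3, and -0.13 to 0.08 over single arrays left out. Des was 0.03 with array weights, 0.22 with the 18S covariate, 0.20 without male replicates 1 and 3, and -0.12 to 0.17 over single arrays. Tpm2 was 0.04 with the mean of its probe sets and Casq1 -0.55 with the 18S covariate.

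With the replicate number as a block, 9 genes were called higher in males, the 8 and Unc45b. The labels do not say whether a shared number pairs the samples. Deviations of same-numbered arrays correlated at -0.13, -0.08, 0.04 and -0.03, and 1 of the 8 arrays correlated best with its own number. These values show no strong pairing, and a smaller shared effect was not tested. Dim probe sets limit what can be said of the 19 untested members.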
